A study of Mus musculus with 3 samples.

Results

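Lrrc genes, named for the leucine-rich repeats in their proteins, were examined on arrays that compared hearts of Lrrc10-/- and wild-type mouse embryos. The members were the gene probes (control spots left out) whose name in the files is Lrrc and a number, with any letters after it, Lrrc10 included: 62 of 27674 gene names on the array, read by 95 of 41174 gene probes. The questions were which of these genes give signal in the embryonic heart, and which of them differ between the pools together with Lrrc10.

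Each of 3 two-colour arrays compared 1 pool of RNA from 2 hearts labelled Lrrc10-/- (Cy5, red) with 1 pool from 2 hearts labelled Lrrc10+/+ (Cy3, green), all at embryonic day 15.5 and on the C57BL/6 background. The embryos were littermates from matings of Lrrc10+/- mice, and the null allele is in the germline, so every cell of an Lrrc10-/- embryo carries it. For the wild type, a further label entry gives an adult age. Whether the 3 wild-type pools were separate pools is not settled by the labels, while the paper describes the 3 replicates as biologically independent. The dyes were not exchanged, so genotype and dye cannot be told apart. Each array is 1 replicate, and the p-values measure the spread between 3 arrays, whose number limits the precision. In whole hearts, fewer cells of a type and less RNA per cell cannot be told apart.

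A leucine-rich repeat is a short stretch of protein with leucines at fixed places. Several repeats stack into a curved solenoid that other proteins bind, and the repeat has no catalytic activity of its own. Lrrc numbers were given to genes for holding such repeats, so 2 Lrrc genes need not be close relatives or share a function. LRRC10 itself is a heart muscle protein found near the Z-disc, where actin filaments are anchored, and it binds actin and alpha-actinin.

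The probes that carry the results come first, with the first 30 of the 60 bases of each. The Lrrc10 probe is shown because it gave the only large ratio of the family, and both probes of Lrrc51 and of Lrrc46 because the probes of each gene gave different ratios.
Lrrc10, A_51_P441687: actgtcactcctgtgccagaagcagttcct
Lrrc51, A_51_P431510: tctccggagcctgaccctccatgggaaccc
Lrrc51, A_52_P319137: ctcaatgatctgaaagacttcaaccaggtg
Lrrc46, A_52_P375546: ctgggaaggagtcagcccctaaagctacct
Lrrc46, A_51_P216085: atcgggaatttagagaaactccggaatatt
The Lrrc10 probe lies on the plus strand of chr10:116483517-116483576 (mm9, as in the files). The Lrrc51 probes lie on the minus strand, at chr7:109061943-109062002 and chr7:109064124-109064183, with 2121 bases between them, and the files list them under different RefSeq transcripts. The Lrrc46 probes lie on the minus strand too, A_52_P375546 at chr11:96896108-96896167 and A_51_P216085 in pieces between chr11:96897822 and chr11:96900136, under 1 transcript. No exon or UTR is given for them, since no annotation of that build was used here.

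Some facts of the arrays bear on all values. After background subtraction, the median gene spot read 143 to 355 in Cy5 and 104 to 354 in Cy3. The scanner software flags each spot that is well above background. The flagged share of gene spots was lowest on replicate 3 (63.9% in Cy5 and 69.3% in Cy3). In an alternative fit with array weights, limma gave that array the lowest weight of the 3 (0.634, against 1.127 and 1.401). The main fit weighted the arrays equally. All 10 heart muscle markers examined (Actc1, Actn2, Myh6, Myh7, Myl2, Myl7, Nkx2-5, Nppa, Ryr2 and Tnnt2) were well above background in both channels on all arrays. Of these, 6 were saturated in both channels on at least 1 array and their ratios say nothing of heart muscle content, while the other 4 (Actn2, Myh6, Nkx2-5 and Ryr2) had mean log2 ratios from -0.28 to -0.022, none called. The paper reports Actn2, Actc1 and Nppa as upregulated in Lrrc10-/- hearts at this age, by arrays and qRT-PCR. The probes examined here had means of -0.28, -0.17 and -0.21 in the labelled direction, those of Actc1 and Nppa saturated. What sets this difference was not tested. Of 4 liver markers (Afp, Alb, Apoa1 and Ttr), Afp and Alb were tested and neither was called. On replicate 2 Afp read 487 in Cy5 and 19365 in Cy3 (log2 ratio -5.15), and Alb 457 and 3781 (-2.74). Both had ratios above 0 on replicates 1 and 3. What the Afp and Alb difference between pools means for the Lrrc ratios was not tested. Replicate 1 was scanned and read with other hardware and software than replicates 2 and 3.

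Lrrc10, the targeted gene, came first as a check of the labels. Processed signals of its 1 probe were 6294, 8521 and 12637 in Cy5, the channel labelled Lrrc10-/-, on the 3 arrays. In Cy3, the channel labelled wild type, they were 281, 237 and 200. All 6 readings were well above background, and the channels did not overlap: the lowest Cy5 reading was far above the highest Cy3 reading. The log2 ratio of Cy5 over Cy3 after loess normalization within each array was 3.99, 4.78 and 4.45, a mean of 4.41 ± 0.40 (SD, n = 3), or 21.2-fold, with a limma adjusted p of 0.000381. Ratios from the scanner software were larger, with a mean of 37.1-fold, and the gap was widest on replicate 3 (63.2-fold, against 21.9-fold after loess). It was the highest mean of all 28317 tested probes.

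Lrrc10, the gene said to be missing, was thus far brighter in the channel that should lack it, which is against the labels. Which bases the null allele lacks is not given in the sources used here, so it is not known whether this probe lies within the deleted stretch. Directions below are those of the channel labelled Lrrc10-/- over the channel labelled wild type, and higher and lower would change places everywhere if the labels were exchanged. The adjusted p depended on the processing, as it was 0.270 for ratios of processed signals and 0.504 with the methods' t-test. Both were adjusted here over 28317 probes, and under either setting no probe of the whole array was called. The test of the latter setting is the one the paper's methods give for results in general, unless otherwise stated. For the array data the paper names EDGE3 software, which was not run here. Its selection of array probes gives a p-value under 0.05 and names no adjustment. The adjusted p-values above therefore do not say whether the study's own selection kept Lrrc10. In the count modelled on that selection, given below, the Lrrc10 probe was among those higher.

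**Figure D1:**
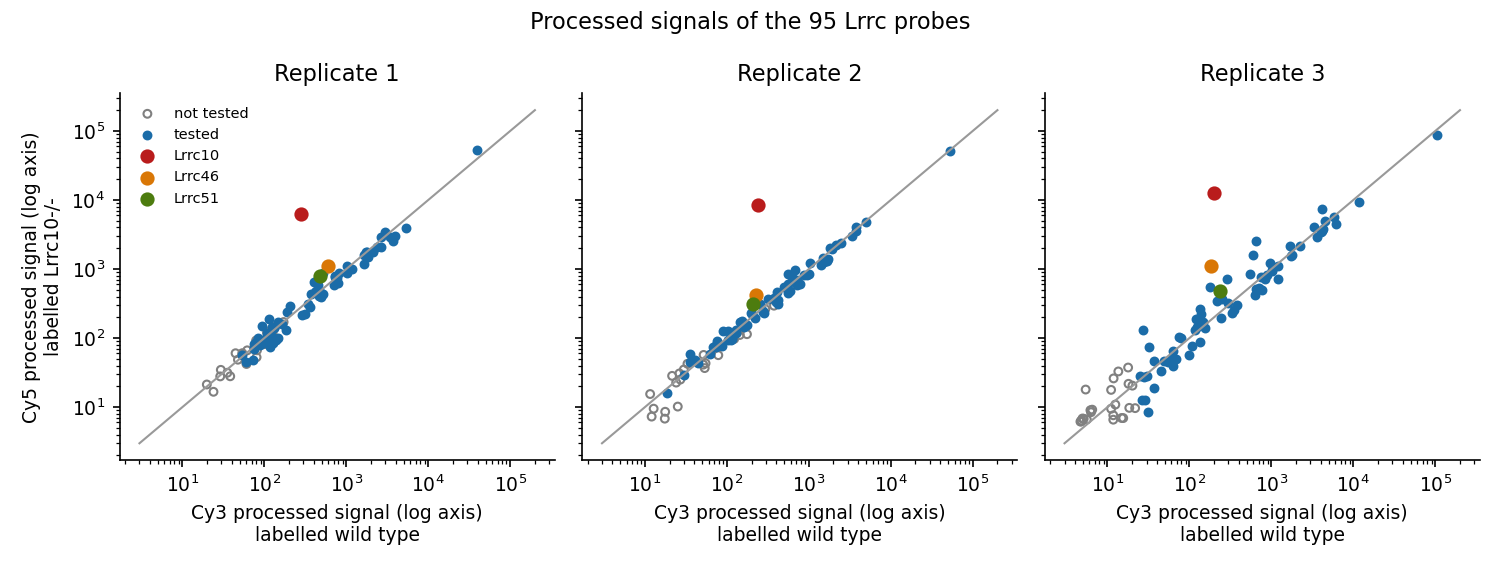
Processed signal in Cy5 (labelled Lrrc10-/-) against Cy3 (labelled wild type) for the 95 Lrrc probes on each of 3 arrays, both axes logarithmic, with the line of equal signal. Filled points are tested probes, open points are those too dim to be tested, and the probes of Lrrc10, Lrrc46 (A_52_P375546) and Lrrc51 (A_51_P431510) are coloured: Lrrc10 stands far above the line on all 3 arrays, at 6294, 8521 and 12637 in Cy5 against 281, 237 and 200 in Cy3.

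By the software's flag, most of the family gave signal in the embryonic heart, at a share near that of the whole array. Of the 62 genes, 45 had a probe well above background in both channels on all 3 arrays, and each had at least 1 reading well above background. Counted by probe the number was 63 of 95 (66.3%), beside 61.6% of all gene probes. None of the 95 probes lacked the flag in every reading, as 5.46% of all gene probes did. In Cy3 of replicate 2 alone all 95 were flagged, beside 93.2% of all gene spots. On replicate 3 only 63 Lrrc probes were well above background in Cy5, against 91 on replicate 1 and 81 on replicate 2. By a stricter limit, a mean signal above the brightest negative control spot of the channel, 23 of the 62 genes were left. The share of the whole array under that limit was not counted, and how many members give signal depends on the limit.

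The mean processed signals of the 95 probes ran from 12.9 to 64981 with a median of 145, beside a median of 191 for all gene probes. The 10 genes with the brightest probe were, in order, Lrrc58, Lrrc17, Lrrc10, Lrrc39, Lrrc1, Lrrc45, Lrrc59, Lrrc8a, Lrrc56 and Lrrc42. This is an order of spots, over both channels, and not of transcript levels. Lrrc10 holds its place through Cy5: it came 2nd of 62 genes by the brightest probe in Cy5 and 32nd in Cy3. The 4 probes of Lrrc58 had mean signals from 30.1 to 64981 and those of Lrrc39 from 51.5 to 4374, and what sets these differences was not tested. The brightest Lrrc58 probe was saturated in both channels on 2 of 3 arrays, so no ratio is given for it, and the means of its other probes lay between -0.089 and -0.0087.

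Several of these bright genes have a known role. Lrrc17 encodes a secreted protein known from bone, and its probe read 3395, 4732 and 9510 in Cy5 against 2934, 4945 and 11592 in Cy3. Lrrc1 encodes a scaffold protein of cell borders related to Scrib, and its brightest probe read 2910, 3057 and 4526 in Cy5 and 3397, 3346 and 6204 in Cy3. Lrrc45, a protein of the linker between centrosomes, read 2956, 2402 and 4979 in Cy5 and 2679, 2502 and 4554 in Cy3. For Lrrc17 and Lrrc45 the brighter channel changed from array to array, while Lrrc1 was dimmer in Cy5 on all arrays.

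At the dim end, 13 genes had no probe that was well above background throughout a channel, and were not tested: Lrrc7, Lrrc9, Lrrc18, Lrrc19, Lrrc31, Lrrc36, Lrrc37a, Lrrc43, Lrrc44, Lrrc52, Lrrc55, Lrrc63 and Lrrc69. Each had at least 1 reading flagged well above background, but all 95 Lrrc probes were flagged in Cy3 of replicate 2. The flags therefore cannot tell whether these genes are silent or expressed. The dimmest member probe, at 21.3, 6.82 and 6.79 in Cy5 and 19.9, 17.5 and 5.14 in Cy3, carries the name Lrrc52 in the files. It lies on the plus strand and the other Lrrc52 probe on the minus strand, so its values cannot be taken as those of Lrrc52 transcripts.

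Of the 95 probes, 71 probes of 49 genes passed the filter on dim spots (well above background in 1 channel on all 3 arrays). Of these 71, 2 passed the threshold (limma, adjusted p under 0.05) as higher in Cy5, which is 2.82% of them, beside 1.39% of all 28317 tested probes. They were Lrrc10 itself and 1 of the 2 probes of Lrrc51. None was called lower, where 0.00353% of all tested probes (1 probe) was. At an unadjusted p under 0.05, 6 were higher (8.45%, beside 9.07% of all) and 2 lower (2.82%, beside 4.27%). These shares lie near those of the whole array.

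The rest of the family lay close to 0. For the 70 tested probes other than that of Lrrc10, the median log2 ratio was -0.0044, the quartiles were -0.11 and 0.082 and the range was -0.46 to 0.93, beside a median of 0.013 and quartiles of -0.11 and 0.15 for all tested probes. Of the 71 tested probes, Lrrc10 included, 63 (88.7%) had a mean between -0.3 and 0.3, 35 a mean above 0 and 36 below. Over all tested probes, the percentiles nearest these limits were the 5th, at -0.2986, and the 89th, at 0.3029. The SD over the 3 arrays had a median of 0.18, beside 0.20 for all tested probes. By array, the medians of the 70 probes were -0.023, -0.033 and -0.020.

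**Figure D2:**
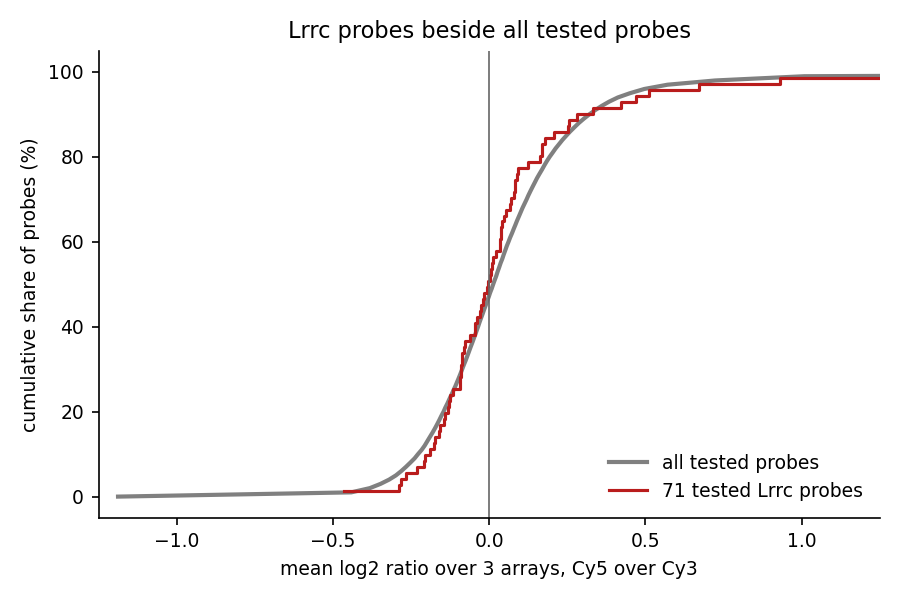
Cumulative share of probes (%) against the mean log2 ratio of Cy5 over Cy3 on 3 arrays, for the 71 tested Lrrc probes (red steps) and all 28317 tested probes (grey). The curves lie close together with medians near 0, and Lrrc10, at 4.41, lies beyond the right edge.

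The measure of likeness to Lrrc10 was its sign on the 3 arrays, with genes ordered by the array of their smallest ratio. It was taken for 1 probe per gene, that of highest mean log intensity over both channels. For Lrrc3 this was the dimmer probe by processed signal, and its brighter probe was below 0 on all arrays (-0.42, -0.028 and -0.031). Of 49 tested genes, 6 were above 0 on all arrays, in the order Lrrc10, Lrrc46, Lrrc51, Lrrc2, Lrrc23 and Lrrc8e. Counted by probe this was 6 of 71 (8.45%), beside 19.1% of all tested probes. Below 0 on all arrays were 9 genes, in the order Lrrc59, Lrrc8b, Lrrc16b, Lrrc40, Lrrc1, Lrrc4, Lrrc26, Lrrc41 and Lrrc8a. By probe this was 13 of 71 (18.3%), beside 17.4% of all tested probes. Between Lrrc10 and the next gene there was a wide gap: the smallest ratio of Lrrc10 was 3.99 and the largest of Lrrc46 was 1.44.

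**Figure D3:**
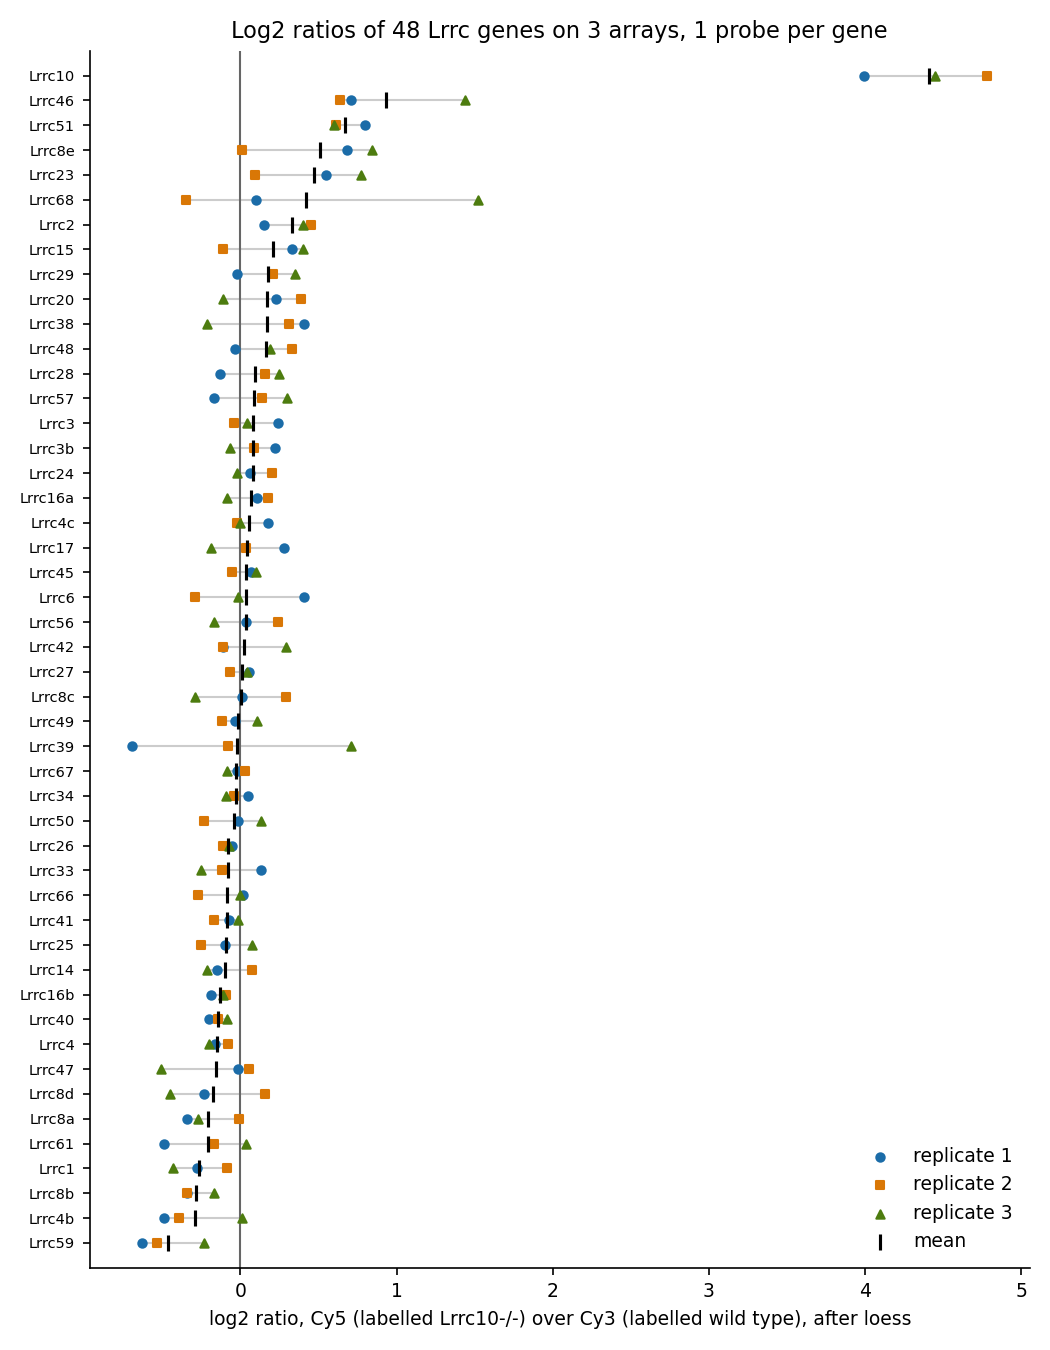
Log2 ratios of Cy5 (labelled Lrrc10-/-) over Cy3 (labelled wild type) on 3 arrays for 48 tested Lrrc genes, 1 probe per gene, ordered by the mean (black bar). Lrrc58, whose brightest probe was saturated, is not drawn. Lrrc10 stands alone at 3.99 to 4.78, and Lrrc46 and Lrrc51 are the next.

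Lrrc51 encodes a repeat protein of little known function. Its brighter probe, A_51_P431510, read 782, 315 and 479 in Cy5 and 483, 208 and 239 in Cy3. Its log2 ratios were 0.80, 0.61 and 0.60, a mean of 0.67 ± 0.11 (SD, n = 3), or 1.59-fold, with a limma adjusted p of 0.0472. The call was just inside the threshold. The call was lost without replicate 1 (limma adjusted p of 0.464), without replicate 2 (limma adjusted p of 0.271) and under 9 other settings, while the mean stayed between 0.59 and 0.77 in each of these. Over the whole array, only 2 probes were called higher without replicate 1, and 1 without replicate 2.

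The other Lrrc51 probe did not show it. A_52_P319137 read 93.1, 117 and 268 in Cy5 and 138, 115 and 136 in Cy3. Its log2 ratios were -0.45, -0.21 and 0.27, a mean of -0.13 ± 0.37 (SD, n = 3) with a limma adjusted p of 0.769. The ratios of the 2 probes did not overlap on any array, and their gap of 0.80 was the widest among the 15 Lrrc genes with several tested probes. Which of the probes reads the gene's transcripts in these hearts was not tested.

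Lrrc46, a protein of the sperm tail, had the highest mean after Lrrc10 but was not called. A_52_P375546 read 1093, 421 and 1105 in Cy5 and 598, 230 and 183 in Cy3. The log2 ratios were 0.71, 0.64 and 1.44, a mean of 0.93 ± 0.44 (SD, n = 3; limma adjusted p of 0.0593). Replicate 3 was the highest, and without it the mean was 0.67 with a limma adjusted p of 0.00401. Without that array 1724 of 35961 tested probes were called higher, against 395 of 28317 with all 3 arrays. It also passed when limma allowed for an intensity trend (adjusted p 0.0443) or for array weights (adjusted p 0.0415). The other probe of the gene, A_51_P216085, gave 0.57, 0.42 and -0.15, a mean of 0.28 ± 0.38 (SD, n = 3), so the 2 probes shared the sign on 2 of 3 arrays.

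In the striated muscle group (Lrrc10, Lrrc2 and Lrrc39), Lrrc10 was the one gene called. Lrrc2, which encodes a protein of heart and skeletal muscle mitochondria, read 584, 836 and 858 in Cy5 and 455, 554 and 548 in Cy3. Its ratios of 0.15, 0.45 and 0.40 were above 0 on all arrays, with a mean of 0.33 ± 0.16 (SD, n = 3), or 1.26-fold, and a limma adjusted p of 0.305, so it was not called. Lrrc2 was above 0 under all settings tried.

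Lrrc39, a protein of the sarcomere's M-band that binds myosin heavy chain, was read by 4 probes and none was called. The brightest, A_52_P65305, read 3028, 4024 and 7355 in Cy5 and 3926, 3731 and 4179 in Cy3. Its log2 ratios of -0.69, -0.081 and 0.71 spanned both directions, with a mean of -0.020 ± 0.70 (SD, n = 3). The sign of that mean changed with the processing, to 0.18 for ratios of processed signals. The means of its other 3 probes were 0.26, -0.12 and 0.0049, and the array that was highest differed between probes.

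The LRRC8 group, subunits of the volume-regulated anion channel that cells open when they swell, was complete: all 5 genes were well above background in both channels on all arrays. None was called, 2 had a mean above 0 and 3 below, and the median was -0.17. Lrrc8a, the subunit without which the channel does not form, read 2055, 2227 and 3460 in Cy5 and 2387, 2154 and 4054 in Cy3. Its log2 ratios were -0.34, -0.011 and -0.27, a mean of -0.21 ± 0.17 (SD, n = 3; limma adjusted p of 0.523). The brighter probe of Lrrc8b gave -0.34, -0.34 and -0.17, with a mean of -0.28 ± 0.097 (SD, n = 3; limma adjusted p of 0.357), and the dimmer one a mean of 0.12. Lrrc8c and Lrrc8d had means of 0.0023 and -0.17 and crossed 0 between arrays, and the sign of Lrrc8c flipped to -0.073 with median centring in place of loess.

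Lrrc8e was the one subunit above 0 on all arrays. Its brightest probe read 866, 704 and 545 in Cy5 and 520, 725 and 178 in Cy3. The log2 ratios were 0.68, 0.014 and 0.84, a mean of 0.51 ± 0.44 (SD, n = 3; limma adjusted p of 0.273). Replicate 2 was thus at 0, and the 2 dimmer probes of the gene, not tested, had means of 0.058 and -0.026.

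The 9 genes of motile cilia, sperm tails and tubulin included 7 that were tested, of which none was called. The median of the 7 was 0.035, with 5 means above 0 and 2 below. Beside Lrrc46, Lrrc23 was the highest. Lrrc23, a protein of the radial spokes, read 645, 467 and 715 in Cy5 and 402, 406 and 289 in Cy3, with log2 ratios of 0.55, 0.091 and 0.77 and a mean of 0.47 ± 0.34 (SD, n = 3; limma adjusted p of 0.257). Lrrc56, a gene of ciliary dynein transport, had a mean of 0.035 that turned to -0.029 with median centring. Lrrc6, Lrrc48, Lrrc49 and Lrrc50, which build or brace axonemes or modify tubulin, had means of 0.034, 0.16, -0.014 and -0.038.

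Markers of ciliated cells were examined beside this group. Of 4 markers (Dnah5, Foxj1, Rsph1 and Tekt1), 2 were well above background in every reading. The 3 that were tested had means of 0.28, 0.061 and 0.047, and none was called. The summed signal of all 4 markers ran from 618 to 1724 in Cy5 and from 451 to 1743 in Cy3. The part of ciliated cells in the ratios of Lrrc23 and Lrrc46 was not tested.

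The genes of the other groups were not called either. Of the BK channel subunits, Lrrc26 and Lrrc38 were tested, with means of -0.077 and 0.17. Of the genes of synapses, the netrin-G ligands Lrrc4, Lrrc4b and Lrrc4c had means of -0.14, -0.29 and 0.053. Lrrc16a and Lrrc16b, now Carmil1 and Carmil3, regulators of actin capping, had means of 0.068 and -0.13, and Lrrc16b was below 0 on all arrays at -0.19, -0.092 and -0.11. Lrrc33, now Nrros, which anchors latent TGF-beta on macrophages and microglia, and Lrrc25, an inhibitory receptor of myeloid cells, had means of -0.080 and -0.093. The 4 macrophage markers (C1qa, Cd68, Csf1r and Ptprc) were well above background in all readings, and none was called. Csf1r was above 0 on all arrays, at 0.66, 0.53 and 1.51 (mean 0.90 ± 0.53, SD, n = 3), while the means of C1qa, Cd68 and Ptprc were -0.19, -0.28 and -0.22. Their part in the ratios of Lrrc33 and Lrrc25 was not tested.

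Among the lower genes, Lrrc59 had the lowest mean of the family. It encodes an endoplasmic reticulum membrane protein that binds ribosomes. Its probe read 2546, 1287 and 3573 in Cy5 and 3666, 1684 and 4156 in Cy3, and Cy5 was the dimmer channel on every array. The log2 ratios were -0.63, -0.53 and -0.23, a mean of -0.46 ± 0.21 (SD, n = 3), or 1.38-fold lower, with a limma adjusted p of 0.193. Replicate 3 was nearest 0, and without it the mean was -0.58 with a limma adjusted p of 0.0155. Without that array 302 of 35961 tested probes were called lower, against 1 of 28317 with all 3 arrays.

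Lrrc1 was the only gene with 3 tested probes that were all below 0 on all 3 arrays. The means were -0.26, -0.19 and -0.13, with the brightest probe at -0.28, -0.085 and -0.43 on the arrays (SD 0.17, n = 3; limma adjusted p of 0.416). None of the 3 was called, also at an unadjusted p under 0.05. Lrrc40 had its brightest probe at -0.20, -0.14 and -0.088, a mean of -0.14 ± 0.054 (SD, n = 3; limma adjusted p of 0.631), while 2 further probes had means of 0.049 and -0.23.

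How far probes of 1 gene differ was measured in the 15 genes with several tested probes. The median gap between the highest and lowest mean was 0.25, as large as many of the ratios above. In 4 genes the gap was over 0.3: Lrrc51 (0.80), Lrrc46 (0.65), Lrrc8b (0.41) and Lrrc39 (0.37). In 10 of the 15 the means lay on both sides of 0, but in none did probes take opposite signs on all 3 arrays. Some pairs moved together instead. The 2 probes of Lrrc68, now Ppp1r37, a regulator of protein phosphatase 1, gave 0.10, -0.35 and 1.52, and -0.033, -0.21 and 1.01, so both were high on replicate 3 alone, and their limma adjusted p-values were 0.604 and 0.667. Both Lrrc42 probes gave nearly equal ratios, at -0.11, -0.11 and 0.29, and -0.16, -0.14 and 0.34.

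**Figure D4:**
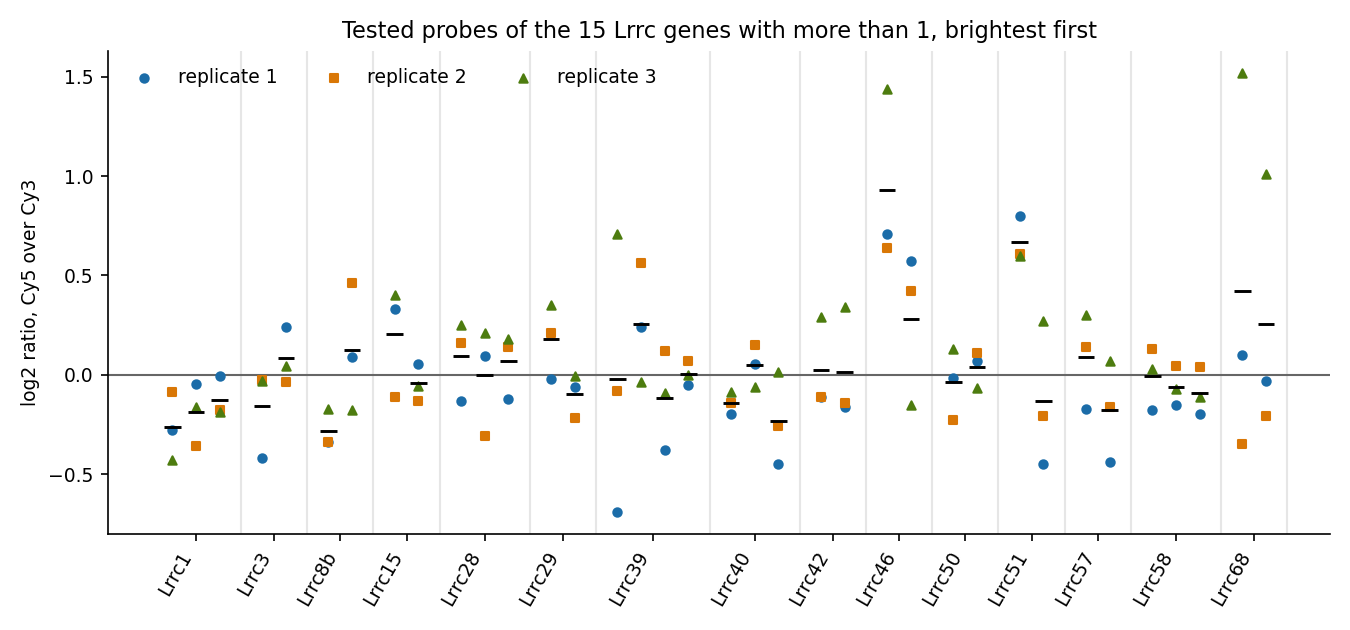
Log2 ratios of Cy5 over Cy3 on 3 arrays for each tested probe of the 15 Lrrc genes with several, the brightest probe of a gene first, with the mean as a black bar (the saturated Lrrc58 probe is left out). Probes of Lrrc51 and Lrrc46 lie apart, by 0.80 and 0.65 in the mean, and both Lrrc68 probes are high on replicate 3 alone.

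The study's own kind of selection was also applied as a count without a test: at least 1.2-fold in 1 direction on all arrays by the software's ratios, with the software's p under 0.05 on each and a processed signal of at least 20. Of 67 Lrrc probes with that signal, 3 were higher, those of Lrrc10, Lrrc46 (A_52_P375546) and Lrrc51 (A_51_P431510). That is 4.48%, beside 2.14% of the 27358 probes with that signal on the whole array. None was lower, beside 0.132%.

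Outside the family, 61 other genes with leucine-rich repeats were looked at, such as small proteoglycans, Slit and Flrt guidance proteins, tropomodulins and Lgr receptors. Of these, 60 were on the arrays and 48 were tested, with 78 probes. The called probes were 1 higher, of Lgr4 (1.28%, beside 1.39% of all tested probes), and 0 lower (beside 0.00353%). At an unadjusted p under 0.05 by limma, 5 were higher (6.41%, beside 9.07%) and 4 lower (5.13%, beside 4.27%), shares near those of the array, and the median was 0.0099. Lgr4, a receptor for R-spondins that strengthens Wnt signalling, had the called probe A_52_P278566 at 0.81, 1.62 and 0.90 (mean 1.11 ± 0.44, SD, n = 3; limma adjusted p of 0.0328). The call was lost without replicate 1 (mean 1.26, limma adjusted p 0.167), without replicate 2 (mean 0.85, limma adjusted p 0.192) and under 8 other settings. The other 2 tested Lgr4 probes had means of 0.30 and -0.29, so this gene too was called by 1 probe of several.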

How the data were processed

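Spot intensities were taken from the deposited scanner files, which the authors made, per the file headers, with Agilent Feature Extraction 9.1.3.1 for replicate 1, with local background, and 10.7.3.1 for replicates 2 and 3. The processed intensity had been background-subtracted and dye-normalized by the authors' software. The deposited log10 ratios and p-values of each spot are the software's own, and the deposited series table equals these log10 ratios. With limma 3.58.1 (R 4.3.3), log2 Cy5/Cy3 ratios were made from mean signals corrected by normexp on local background (offset 50) and loess within array. Control and non-uniform spots were left out, saturated spots kept, and spots of 1 probe averaged. Probes well above background in 1 channel on all 3 arrays were tested against 0 (lmFit, eBayes, two-sided, Benjamini-Hochberg over 28317 probes, threshold 0.05), and the fit was tested on simulated data. Processed signals in the text are the software's.

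The members and lists were chosen with earlier results of these data known. The genes named are Lrrc10, called members, the 5 members most like its pattern and the 5 most unlike it, the 10 of brightest probe, the LRRC8 and striated muscle groups, and called genes of the other repeat list. Others named (Lrrc68 and the remaining members of the groups, for example) were chosen after their values were seen. Newer symbols come from a RefSeq table of GRCm38.p6: all 95 probes matched, 8 of 62 genes have another name now, and Lrrc14b, Lrrc30 and Lrrc32, listed in the groups, were not analysed here. An alignment of the proteins to LRRC10 was not run. Alternatives changed background correction, normalization, filters on dim probes, the variance model, the test, a block for software version and the arrays used.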

Additional observations from a re-analysis of the deposited data

How the results depend on the processing

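The log2 ratio of Lrrc10 was above 4 under all 15 alternatives, but it was not called for ratios of processed signals or in the deposited series table (5.21 each), after scaling between arrays (4.60) or by the methods' t-test (4.41). Leaving out 1 array gave 4.22 to 4.62. The count of family probes called higher, 2 in all, was 0 with the processed signals, the series table, scaling and the methods' t-test, and 1 with no background correction, median centring, no filter on dim probes and software version as a block. Over the whole array, the main fit called 395 probes higher. Where the family count was 0, the count over the whole array was 0 too. Where it was 1, the array count was 1 with no background correction and with the version block, 267 with median centring and 145 with no filter. Leaving out 1 array gave 1 to 4 higher and 0 to 1 lower, the largest counts without replicate 3, where Lrrc10, Lrrc51, both Lrrc46 probes and Lrrc59 were called. Without replicate 3, 91 family probes were tested, and 1724 of all 35961 tested probes were called higher and 302 lower. Over the whole array, 2 probes were called higher without replicate 1 and 1 without replicate 2. The count at an unadjusted p under 0.05, 8 in all, was 5 with the processed signals and the series table, 6 by the methods' t-test and 4 to 17 with 1 array left out. In the other repeat list, the count called higher was 0 under 8 alternatives (processed signals, no background correction, median centring, scaling, series table, no filter, methods' t-test, version block), 2 with an intensity trend and 0 to 5 with 1 array left out, and the count lower was 0 to 1. The 1.2-fold count, 3 in all, was 4 to 7 with 1 array left out, and 7 without replicate 2. Genes well above background on every array, 45 in all, came to 23 when the mean signal had to exceed the highest negative control spot.

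Lrrc51 kept its call with a filter on both channels, with a signal of at least 20, with array weights and without replicate 3. Of 270 values of 18 named genes, 228 kept direction and side of the threshold, 11 (all Lrrc51) lost it, 4 passed it and 27 changed sign. Each sign change was of a gene with a main mean within 0.05 of 0 and none of these values passed the threshold. They were Lrrc17 at -0.046 (processed signals and series table), -0.019 (median centring) and -0.0033 (scaling). Lrrc39 was at 0.18 (processed signals and series table) and 0.13 (scaling). Lrrc45 was at -0.024 (median centring). Lrrc56 was at -0.029 (median centring) and -0.011 (scaling). Lrrc42 was at -0.13 (processed signals and series table), -0.045 (median centring), -0.029 (array weights) and -0.0093 (version block). Lrrc8c was at -0.15 (processed signals and series table), -0.056 (no background correction), -0.073 (median centring) and -0.065 (scaling). With 1 array left out the ranges were -0.076 to 0.16 for Lrrc17, -0.38 to 0.31 for Lrrc39, -0.067 to 0.14 for Lrrc56, -0.11 to 0.092 for Lrrc42 and -0.14 to 0.15 for Lrrc8c. What causes these sign changes was not tested. Each ratio pairs the channels of 1 array, so the test against 0 is itself paired by array.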

Other observations

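The files name 8 probes by older names whose genes are Lrrc genes in the current RefSeq table, and these lay outside the family as chosen. Lrrc72, read by 1 probe under the name 1700108M19Rik, gave 1130, 342 and 623 in Cy5 and 559, 94.1 and 181 in Cy3. Its log2 ratios were 1.35, 1.58 and 0.91, a mean of 1.28 ± 0.34 (SD, n = 3), and it was called in the main fit (limma adjusted p of 0.0172). In that fit 1.39% of all tested probes were called higher. The call was lost with processed signals, the series table, scaling and the methods' t-test, where no probe of the array was called. It was also lost with no background correction, with the version block and without replicate 2, where Lrrc10 alone was called. Lrrc71, under the name 4933430H15Rik, had a probe whose ratios ran from 0.43 to 1.0 (mean 0.80 ± 0.32, SD, n = 3; limma adjusted p of 0.0578) and a second at 0.070, -0.17 and -0.0025, so its 2 probes differed as those of Lrrc51 did. Lrrc73, Lrrc75a and Lrrc75b had means of -0.11, -0.18 and 0.13, and both Lrrc74b probes were too dim to be tested. On chromosome 10, which also holds Lrrc10, lie 2 other members, Lrrc20 at a mean of 0.17 ± 0.25 (SD, n = 3) and Lrrc3 with probes at -0.16 and 0.082.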
